A study of Mus musculus with 9 samples.

Results

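The EGR transcription factors and their NAB corepressors were described in thymocytes sorted by how strongly they expressed a reporter of antigen receptor signaling. The members were the genes whose symbol in the table is Egr1, Egr2, Egr3, Egr4, Nab1 or Nab2, which made 6 of 41978 genes. Total RNA was sequenced from semi-mature CD4 single-positive (SP4) thymocytes of Nur77-eGFP BAC Tg mice. This transgene, carried by every sample, places GFP under the regulatory DNA of Nr4a1, so that GFP marks cells in which the T cell receptor (TCR) has signaled. Live cells were gated as CD25- CD69+ CD24+ CD4+ CD8-, and about 10% of them with the lowest (GFPlo), intermediate (GFPmed) and highest (GFPhi) GFP were sorted, 10000 cells per sample, in biological triplicate (n = 3 per group, 9 samples). No treatment or second genotype separated the groups. GFP is a stable protein and reports past as well as present transcription, the mice were not given an age in the labels, and the methods name the same gate CD24hi that the main text of the study names CD24lo.

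EGR proteins are zinc-finger activators that bind GC-rich DNA. Their genes are immediate-early genes, switched on within minutes of TCR engagement through the ERK pathway, serum response factor (SRF) with its ternary complex partners, and, for Egr2 and Egr3, NFAT. In the thymus they act in positive selection and in the induction of Id3, and in mature T cells Egr2 and Egr3 take part in anergy. NAB1 and NAB2 bind the EGR1, EGR2 and EGR3 proteins and recruit the NuRD complex, and Nab2 is itself switched on by EGR factors, which closes a negative feedback loop. EGR4 is not held back by NAB proteins.

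Each member was read in its own place in the genome (GRCm38). Egr2 (ENSMUSG00000037868.15) lies on chromosome 10 from 67535475 to 67542188 and Egr3 (ENSMUSG00000033730.4) on chromosome 14 from 70077203 to 70082614, both on the plus strand. Egr4 (ENSMUSG00000071341.4) lies on chromosome 6 from 85511121 to 85513589, Nab1 (ENSMUSG00000002881.14) on chromosome 1 from 52457294 to 52500679 and Nab2 (ENSMUSG00000025402.12) on chromosome 10 from 127660918 to 127668568, all on the minus strand, and the place of Egr1 is given with its values. The annotated transcripts of the 6 genes shared 0 windows of 50 bases with each other on either strand, so a read of that length belongs to 1 member at most.

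The 2 stretches below precede a RefSeq transcript start of Egr2 and of Nab2, a factor and a corepressor that both fell from GFPlo to GFPhi. Each lies inside its gene as annotated, since other transcripts start further upstream. They were taken from RefSeq (GRCm38.p6) and written 5′ to 3′ on the strand of the gene. Capitals mark a CArG box, the site of SRF. The Egr2 stretch is chr10:67537619-67537868, plus strand, ending at the base before that start. The Nab2 stretch is chr10:127666711-127666900, minus strand, cut to bases outside annotated exons.
Egr2: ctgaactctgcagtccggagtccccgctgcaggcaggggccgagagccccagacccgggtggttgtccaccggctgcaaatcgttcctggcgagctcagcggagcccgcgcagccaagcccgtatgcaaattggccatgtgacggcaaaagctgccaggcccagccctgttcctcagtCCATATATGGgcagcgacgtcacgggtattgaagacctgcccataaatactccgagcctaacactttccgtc
Nab2: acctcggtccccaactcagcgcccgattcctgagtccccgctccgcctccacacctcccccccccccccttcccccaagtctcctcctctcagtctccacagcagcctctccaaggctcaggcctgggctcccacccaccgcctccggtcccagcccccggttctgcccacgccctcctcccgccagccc

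Promoter windows of 250 bases before the start site were searched on both strands for the EGR motif GCGNGGGCG, the cyclic AMP response element TGACGTCA, the ETS motif CCGGAAG, the GC box GGGCGG and the CArG box. The GC box shares bases with the EGR motif, so that a stretch can count for both. RefSeq windows were held here for 4 members, Egr2, Egr4, Nab1 and Nab2. Egr2 had 5 such windows, of which only the one nearest a coding transcript start in GENCODE was searched. That window held 1 CArG box, 72 to 63 bases before the start, and none of the other motifs. A CArG box was found in 1.47% of 32851 windows of all genes. Nab1 held 3 EGR motifs, starting 141, 109 and 38 bases before the RefSeq start, and 6 GC boxes. The EGR motif was found in 4.7% of all windows and the GC box in 32.7%. The RefSeq start of Nab1 lies 231 bases from the nearest coding transcript start in GENCODE, so most of that window is transcribed in the GENCODE model. Nab2 held 1 GC box and no other motif, and Egr4 held none of the 5. The cyclic AMP response element and the ETS motif, in 1.55% and 6.91% of all windows, were in none of the 4 windows searched. These matches are letters in a window and were not tied to binding in these cells.

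Between 7465552 and 14943774 reads per sample fell on genes, numbers that were solved from the deposited values. Nr4a1, which the reporter follows, had 217 ± 32.1 TPM (SD, n = 3) in GFPlo, 374 ± 28.6 in GFPmed and 840 ± 75 in GFPhi, in the order of the sort. The SP4 identity was present in every sample, with a summed level of 8 SP4 markers (Cd3e, Cd4, Cd69, Cd24a, Ccr7, Zbtb7b, Gata3 and Bcl11b) from 1044 to 1379 RPKM. Here the deposited TPM serves to compare samples for 1 gene, and RPKM, the solved reads per kilobase of annotated exon scaled to the library's total, serves to compare genes. Tests used limma on log2(TPM + 1) with Benjamini-Hochberg adjustment over 30693 genes. A gene passed the test at an adjusted p of at most 0.05 and was called when its log2 fold change was also at least 1 in size. Ordered trends over the 3 groups used a two-sided exact permutation test, whose smallest possible p is 0.00119, and p-values of the 6 members' trends were not adjusted. That test exchanged samples without regard to replicate number.

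Egr1, Egr2 and Nab2 fell as the reporter rose, and Egr3 moved the other way. From GFPlo to GFPhi, mean TPM of Egr1 went down by 1.7-fold, of Egr2 by 1.87-fold and of Nab2 by 1.59-fold, while that of Egr3 was 1.88-fold higher. Nab1 was lower in the mean by 1.37-fold but did not pass the test, and Egr4 was at the limit of detection in all groups. None of the 5 members tested was called, since no fold change reached the limit, against 1.66% of all genes called, and limma-voom on the solved reads also called 0. Without that limit 3 members passed as lower, against 1.51% of all genes, and 1 as higher, against 2.38%. These passes depended on the setting. Under median-of-ratios scaling 0 members passed, with only the 2 groups compared 2 did, and Egr3 passed in 3 of 16 alternatives. In the main fit all 5 members had an unadjusted p of at most 0.05, 4 as lower and 1 as higher. This was so for 7.19% and 6.63% of all genes. Egr4 did not reach the filter of 1 TPM in 3 samples and was not tested.

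**Figure D1:**
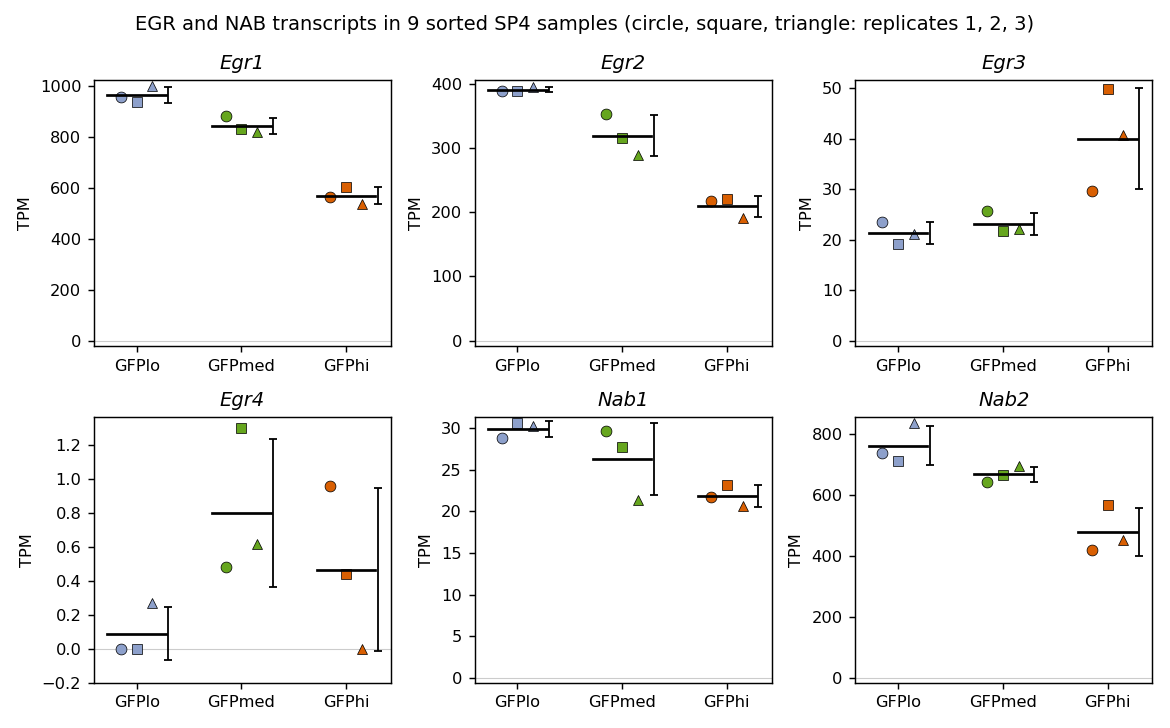
TPM (vertical axis, linear) of the 6 members in each of the 9 samples by GFP group, with the mean as a horizontal line and the SD as a bar. Egr1, Egr2 and Nab2 step down from GFPlo to GFPhi with no overlap between groups, Egr3 is higher in GFPhi (29.7 to 49.8 TPM) than in the other groups, and Egr4 stays at or under 1.3 TPM.

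Egr1, the prototype of the family and an early mark of ERK signaling, was the most abundant EGR transcript. The gene (ENSMUSG00000038418.7) lies on the plus strand of chromosome 18 from 34859823 to 34864984. Its TPM was 958, 938 and 1001 in GFPlo replicates 1 to 3, 881, 831 and 820 in GFPmed, and 566, 604 and 537 in GFPhi. The 3 groups were separate and in descending order. GFPhi differed from GFPlo by a log2 fold change of -0.76 (SE 0.06, 95% interval -0.90 to -0.63, limma adjusted p = 0.000544), and the interval did not reach -1. Between GFPhi and GFPmed it was -0.57 (SE 0.06, limma adjusted p = 0.00454). Between GFPmed and GFPlo it was -0.19 (SE 0.06), which did not pass (limma adjusted p = 0.78), although the groups did not overlap. On the log2 scale the GFPmed mean of Egr1 lay 25.4% of the way from GFPlo to GFPhi, and that of Nr4a1 lay 40.5%. These 2 shares were not compared by a test.

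Egr2, which with Egr3 is tied to tolerance and to late steps of positive selection, had a tight GFPlo group. Its TPM was 389, 389 and 396 in GFPlo, 353, 315 and 290 in GFPmed, and 217, 220 and 191 in GFPhi. The groups again did not overlap, and GFPmed spread more (SD 31.6) than GFPlo (SD 4.19). GFPhi differed from GFPlo by a log2 fold change of -0.90 (SE 0.08, 95% interval -1.10 to -0.71, limma adjusted p = 0.00129). The value was -0.61 between GFPhi and GFPmed (SE 0.08, limma adjusted p = 0.0152) and -0.30 between GFPmed and GFPlo (SE 0.08, limma adjusted p = 0.703). Under median-of-ratios scaling between samples neither Egr1 nor Egr2 passed between GFPhi and GFPlo, with limma adjusted p = 0.121 and 0.0525, at log2 fold changes of -0.68 and -0.82.

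Egr3, a close relative of Egr2 with which it shares many functions, was the EGR gene that passed as higher in GFPhi. Its TPM was 23.5, 19.1 and 21.2 in GFPlo, 25.7, 21.8 and 22.1 in GFPmed, and 29.7, 49.8 and 40.7 in GFPhi. GFPlo and GFPmed overlapped, whereas each GFPhi sample lay above both groups, GFPhi replicate 1 least so. GFPhi differed from GFPlo by a log2 fold change of 0.86 (SE 0.19, 95% interval 0.43 to 1.29), with a limma adjusted p of 0.0487, just inside the threshold. These values rest on 97 to 306 reads per sample. Between GFPhi and GFPmed it was 0.74 (SE 0.19, limma adjusted p = 0.132), and between GFPmed and GFPlo 0.12 (95% interval -0.31 to 0.55, limma adjusted p = 1).

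Whether Egr3 passed depended on the setting. It did so in 3 of 16 alternatives, with limma adjusted p from 0.0137 to 0.186 and a log2 fold change of 0.69 to 1.05. Among the 9 fits that left out a sample it passed without GFPhi replicate 1 alone, where the log2 fold change was 1.05 (limma adjusted p = 0.0148) and the gene was called. Without GFPlo replicate 2 the limma adjusted p was 0.173, and leaving out any of the other 7 samples gave 0.0788 to 0.153. The trend of Egr3 over the 3 groups was 0.43 per step on the log2 scale (exact permutation p = 0.00476).

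Egr4, the member that NAB proteins do not restrain, was barely read. It had 0, 0 and 1 reads in GFPlo, 3, 5 and 2 in GFPmed, and 5, 2 and 0 in GFPhi. With 3 reads as the floor of detection, worth 0.201 to 0.402 CPM in these libraries, 7 of the 9 samples were at or under it. No fold is given, and the trend did not pass (exact permutation p = 0.294). A difference between the groups was not detectable at this depth.

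Nab2, the NAB gene that EGR factors induce, was also lower in GFPhi than in GFPlo. Its TPM was 737, 712 and 834 in GFPlo, 643, 666 and 693 in GFPmed, and 418, 566 and 450 in GFPhi. The 3 groups did not overlap, and GFPhi replicate 2 was the highest of its group. GFPhi differed from GFPlo by a log2 fold change of -0.68 (SE 0.12, 95% interval -0.95 to -0.41, limma adjusted p = 0.0178). It was -0.49 between GFPhi and GFPmed (SE 0.12, limma adjusted p = 0.106) and -0.19 between GFPmed and GFPlo (SE 0.12, limma adjusted p = 1).

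The fall of Nab2 passed in 10 of 16 alternatives. It was lost without GFPlo replicate 1, 2 or 3 (limma adjusted p = 0.053, 0.0521 and 0.07), without GFPhi replicate 3 (0.0755), under median-of-ratios scaling (0.406) and with only the 2 groups compared in the fit (0.0868). The log2 fold change stayed between -0.81 and -0.59 in all 16.

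Nab1, the other corepressor, had the smallest fold change of the 5 members tested. Its TPM was 28.8, 30.6 and 30.3 in GFPlo, 29.7, 27.8 and 21.4 in GFPmed, and 21.7, 23.2 and 20.6 in GFPhi. GFPhi lay below GFPlo in every sample, and GFPmed overlapped both. GFPhi differed from GFPlo by a log2 fold change of -0.44 (SE 0.13, 95% interval -0.74 to -0.14) and did not pass (limma adjusted p = 0.144), though it did with limma-voom on the solved reads (adjusted p = 0.00729). The exact trend test, which takes Nab1 by itself, gave -0.22 per step (exact permutation p = 0.0131).

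The groups of all 5 tested members were separate between GFPhi and GFPlo, with 4 lower and 1 higher, whereas 9.92% of all genes were lower with no overlap and 8.26% higher. Egr1, Egr2 and Nab2 fell in order through all 3 groups with no overlap, a pattern that 0.87% of the genes tested had. Their trends per step were -0.38, -0.45 and -0.34, each at the smallest p the exact permutation test can give, 0.00119. Between GFPmed and GFPlo no member was called, against 0.0586% of genes, and none passed the adjusted p in limma, against 0.0749%. In that comparison 2 members, Egr1 and Egr2, had an unadjusted p of at most 0.05, against 1.93% of genes lower by that rule. Between GFPhi and GFPmed no member was called, against 0.691%, and 2 passed as lower, Egr1 and Egr2, against 0.609%. By an unadjusted p of at most 0.05, 3 members were lower there and 1 higher, against 5.89% and 4.72% of genes. The comparisons share samples, so their values are not independent of each other.

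**Figure D2:**
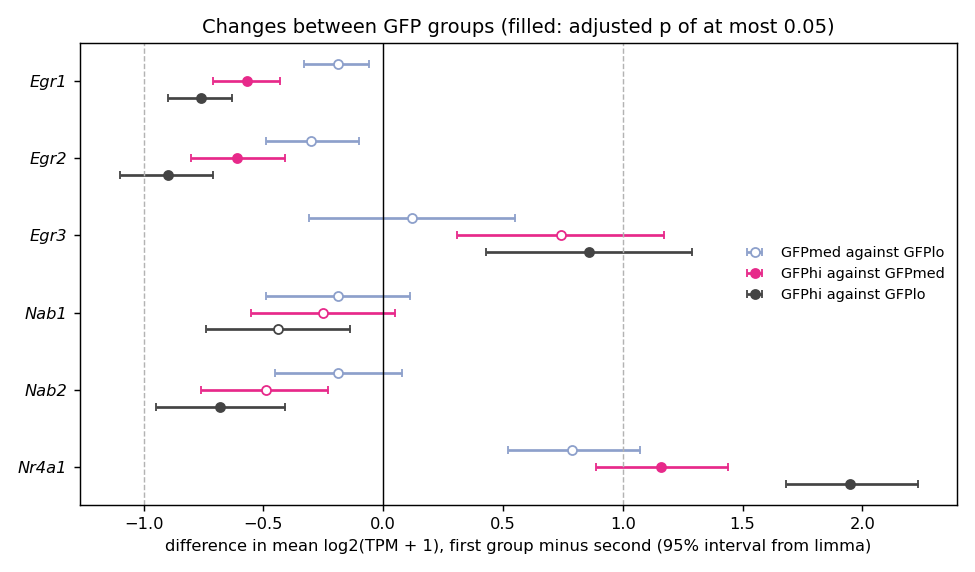
Difference in mean log2(TPM + 1) (horizontal axis) with its 95% limma interval for the 5 tested members and Nr4a1, in the 3 comparisons of GFP groups. Filled points have an adjusted p of at most 0.05 and dashed lines mark a log2 change of 1; Egr1 and Egr2 are filled in both comparisons with GFPhi, Egr3 and Nab2 in GFPhi against GFPlo alone, and Nab1 in none.

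Whether members moved apart was tested within samples, by the difference of log2(TPM + 1) between 2 members, for 6 pairs with Benjamini-Hochberg adjustment over the 6. Only the change of such a difference over the groups is read, since TPM does not serve to compare levels of genes. The difference of Egr1 minus Egr3 was 5.44 ± 0.14 in GFPlo, 5.13 ± 0.08 in GFPmed and 3.82 ± 0.34 in GFPhi (SD, n = 3, log2 scale), a trend of -0.81 per step (exact permutation p = 0.00119, adjusted 0.00357). That of Egr2 minus Egr3 was 4.14 ± 0.15, 3.73 ± 0.07 and 2.38 ± 0.38 in the same order, a trend of -0.88 per step (exact permutation p = 0.00119, adjusted 0.00357). In both pairs no 2 groups overlapped, and Egr3 thus parted from Egr1 and Egr2 beyond the spread of the samples.

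The other 4 pairs did not part by this test. Egr2 against Egr1 changed by -0.07 per step (exact permutation p = 0.0369, adjusted 0.0738). Nab2 against Nab1 changed by -0.12 per step (exact permutation p = 0.194, adjusted 0.233), Egr2 against Nab2 by -0.11 (exact permutation p = 0.143, adjusted 0.214) and Egr1 against Nab2 by -0.04 (exact permutation p = 0.411, adjusted 0.411). These values do not show that the members of a pair moved alike.

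**Figure D3:**
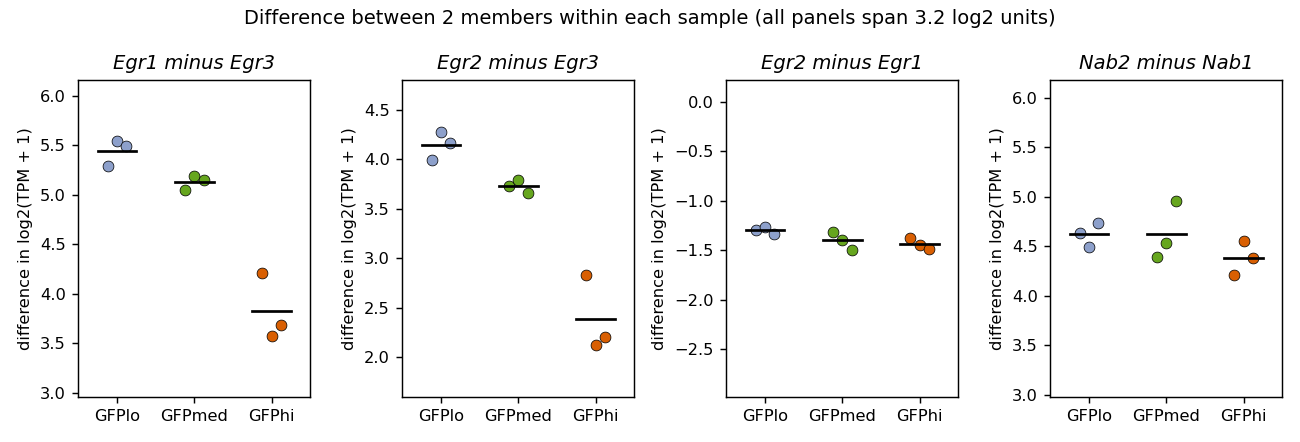
Difference in log2(TPM + 1) between 2 members within each sample (vertical axis, 4 panels of equal span) by GFP group, with the group mean as a line. Egr1 minus Egr3 drops from a mean of 5.44 to 3.82 and Egr2 minus Egr3 from 4.14 to 2.38, while Egr2 minus Egr1 moves by -0.14 and Nab2 minus Nab1 by -0.24 between GFPlo and GFPhi.

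Levels in RPKM put Egr1 and Nab2 among the most abundant transcripts of these cells. The level of Nab2 is uncertain, since 1050 of its exonic bases overlap a gene on the other strand and the library kit does not mark strand. In GFPlo, Egr1 had a level of 166 ± 5.06 RPKM and Nab2 of 175 ± 14.2 (SD, n = 3), ranks 174 and 156 of 30426 genes, and their ranges overlapped. Egr2 came next with 68.9 ± 0.486, then Nab1 with 34.2 ± 1.01 and Egr3 with 2.79 ± 0.298, each separate from its neighbours, and Egr4 last with 0.0178 ± 0.0309. In GFPhi the levels were 98.7 ± 4.2 for Egr1, 111 ± 13.6 for Nab2, 37.3 ± 2.89 for Egr2, 25.2 ± 1.13 for Nab1, 5.28 ± 1.13 for Egr3 and 0.095 ± 0.1 for Egr4. The order of the members was the same, with Nab2 and Egr1 again overlapping, and Egr3 went from rank 13236 to rank 8976.

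Within the EGR family, Egr1 made up 69.8% ± 0.466 of the summed level in GFPlo, 71% ± 1.25 in GFPmed and 69.8% ± 0.416 in GFPhi. The share of Egr2 was 29% ± 0.492, 27.5% ± 1.23 and 26.3% ± 0.925, and that of Egr3 1.17% ± 0.12, 1.49% ± 0.0682 and 3.74% ± 0.837. Egr3 thus remained a small part of the family even where it was highest. The level of Egr1 was 59.8 ± 5.83 times that of Egr3 in GFPlo and 19.4 ± 4.86 times in GFPhi, and that of Egr2 went from 24.9 ± 2.59 to 7.35 ± 2.13 times that of Egr3.

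The summed level of the EGR genes went from 237 ± 5.66 RPKM in GFPlo to 203 ± 7.02 in GFPmed and 141 ± 6.79 in GFPhi, and that of the NAB genes from 209 ± 14.3 to 182 ± 5.06 and 136 ± 13.9. The ratio of NAB to EGR levels was 0.88 ± 0.0399, 0.9 ± 0.0549 and 0.961 ± 0.0912, with overlap between all groups. Nab2 had 5.12 ± 0.42 times the level of Nab1 in GFPlo. By the length behind the deposited TPM, which counts introns, that ratio would be 25.5.

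Nab2 lies in a crowded place, and its reads cannot be fully told from those of its neighbours. It shares 1050 exonic bases with Gm16229, an annotated antisense gene, 151 with Nemp1 and 40 with Stat6, all on the opposite strand, and the library kit does not mark strand. Gm16229 had 746 ± 63.8 TPM in GFPlo, 649 ± 37.8 in GFPmed and 454 ± 66 in GFPhi, with a log2 fold change of -0.72 (SE 0.11, limma adjusted p = 0.0128), close to that of Nab2. Stat6, which transduces IL-4 signals, had 324 ± 20.3, 375 ± 20.1 and 421 ± 58.6 TPM and did not pass (limma adjusted p = 0.117), and Nemp1 with 23.3 ± 4.69, 24 ± 2.65 and 14.4 ± 2.24 TPM did not either (0.105). The values of Nab2 and Gm16229 are therefore uncertain as to which strand they count. The same limit holds for the level and rank of Nab2 above and for the ratios that include it.

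The EGR genes were set among 20 other tested immediate-early genes, of which GFPhi had 7 called higher and 2 called lower relative to GFPlo, against 1.26% and 0.404% of all genes. Their median log2 fold change was 0.46 against -0.09 over all genes. The receptors of the sorted reporter's own family rose, Nr4a1 by 1.95 (SE 0.12, limma adjusted p = 0.000188), Nr4a3 by 1.97 and Nr4a2 by 1.10. So did Fosl2, an AP-1 subunit, by 1.83, and the MAP kinase phosphatases Dusp4, Dusp2 and Dusp5 by 1.75, 1.40 and 1.23. The 2 genes called lower were Jun, an AP-1 subunit, at -1.89 (SE 0.28, limma adjusted p = 0.0101) and Dusp6, the cytoplasmic phosphatase of ERK, at -1.02 (SE 0.08, limma adjusted p = 0.000725). Jund passed at 0.66, under the fold limit. Fos had 33.3 ± 9.61, 36.3 ± 5.83 and 53.3 ± 7.38 TPM (limma adjusted p = 0.152), and Junb, Ier2 and Btg2 had log2 fold changes from -0.02 to 0.11. Fosb and Atf3 did not reach the filter. Of these 20 genes 12 lay above 0 and 8 below it, and Nr4a1 is counted among them although the sort followed it. Egr1, Egr2 and Nab2 lay below 0, as did the called genes Dusp6 and Jun, and Egr3 above it, as did the Nr4a genes.

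**Figure D4:**
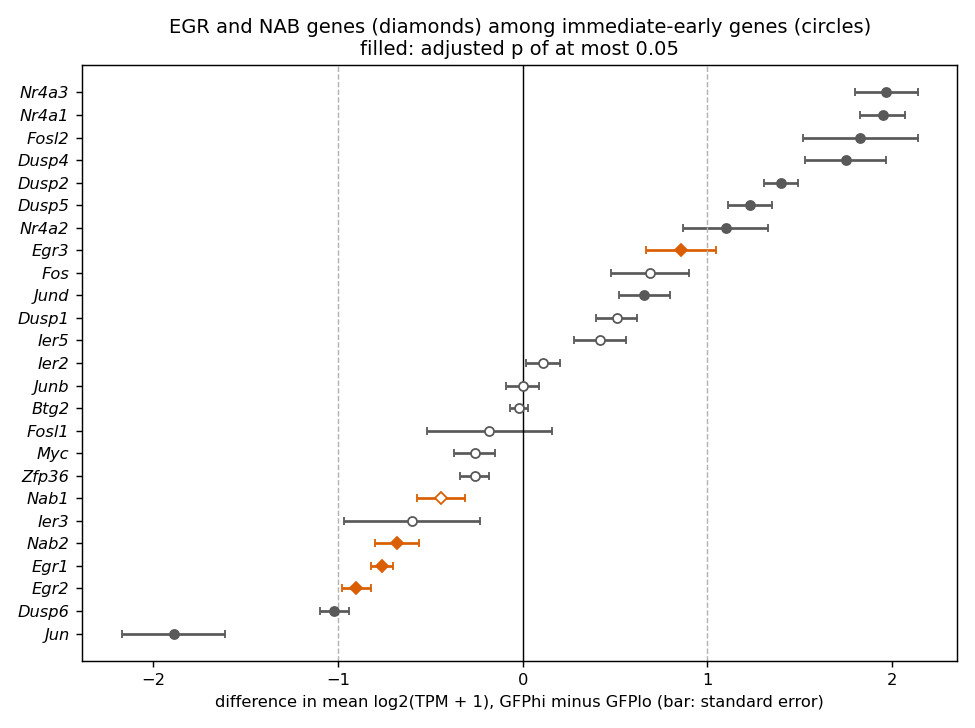
Difference in mean log2(TPM + 1) between GFPhi and GFPlo (horizontal axis, bar: standard error) for 20 immediate-early genes (circles) and the 5 tested members (diamonds), in order of size. Filled symbols have an adjusted p of at most 0.05; the genes run from Jun at -1.89 to Nr4a3 at 1.97, with Egr3 at 0.86 and Egr2 at -0.90.

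None of 14 factors and kinases known to switch on EGR genes was called between GFPhi and GFPlo, against 1.66% of all genes. By limma adjusted p alone 2 passed as higher, both NFAT factors, against 2.38% of all genes, and 1 as lower, against 1.51%. An unadjusted p of at most 0.05 was found for 9, against 6.63% of all genes higher and 7.19% lower. With limma-voom 10 passed and 0 were called, and no share over all genes is given for that fit. Nfatc1, the calcium-driven factor, had 12.7 ± 0.445 TPM in GFPlo, 14.3 ± 0.644 in GFPmed and 21.4 ± 2.86 in GFPhi, a log2 fold change of 0.70 (SE 0.12, limma adjusted p = 0.0202), and Nfatc3 rose by 0.45 (SE 0.08, limma adjusted p = 0.0265). Map2k1, the kinase MEK1 above ERK, fell by 0.39 on the log2 scale (SE 0.07, limma adjusted p = 0.0262). Srf, whose product binds the CArG box, had 115 ± 8.97, 107 ± 7.2 and 85.1 ± 10.3 TPM and did not pass (limma adjusted p = 0.0741). The median of the list was 0.08, against -0.09 over all genes.

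Genes known as EGR targets in T cells differed in both directions. Of 21 tested, 5 were called higher in GFPhi and 1 lower, against 1.26% and 0.404% of all genes. By limma adjusted p alone 6 passed as higher and 1 as lower, against 2.38% and 1.51%, and the rest did not pass. The log2 fold change was above 0 for 10 and below 0 for 11, with a median of -0.03. Tnfrsf9, the costimulatory receptor 4-1BB, rose from 2.17 ± 0.591 TPM in GFPlo to 12.8 ± 1.42 in GFPmed and 194 ± 18 in GFPhi. Il2rb, a chain of the IL-2 and IL-15 receptors, rose from 5.74 ± 0.0607 to 12.7 ± 2.19 and 84.3 ± 13.3. Bcl6, a repressor, rose by 1.89 on the log2 scale, Cblb, a ubiquitin ligase that restrains TCR signals, by 1.16, and Id3, an inhibitor of E proteins, by 1.11. Bcl2, a survival factor, was the gene called lower, with 60.8 ± 5.39, 46.1 ± 0.632 and 23.7 ± 3.63 TPM. Dgka, a diacylglycerol kinase that dampens TCR signaling, passed at 0.82 under the fold limit. The list was written from general knowledge of mature T cells and thymocytes and does not show which of these genes EGR proteins bind here.

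Of 13 subunits of NuRD, the complex that NAB proteins recruit, none was called, against 1.66% of all genes. None passed the adjusted p in limma, against 2.38% of all genes higher and 1.51% lower. With shares this small, the absence of calls among 13 genes says little about the complex. An unadjusted p of at most 0.05 was found for 3, against 6.63% of all genes higher and 7.19% lower. With limma-voom 3 passed, and no share over all genes is given for that fit. The median log2 fold change of the 13 was -0.08, against -0.09 over all genes. The log2 fold change of largest size was that of Mbd2, -0.32 (SE 0.41, limma adjusted p = 0.847), and Hdac1, a histone deacetylase of the complex, had 174 ± 6.79, 175 ± 4.85 and 201 ± 14 TPM (limma adjusted p = 0.174). Among 9 other zinc-finger factors of GC-rich sites, Klf2, which drives exit from the thymus, was the 1 called, against 1.26% of all genes called higher. It rose from 87.8 ± 9.41 TPM in GFPlo to 181 ± 21.9 in GFPmed and 537 ± 43.2 in GFPhi. Klf10, a TGF-beta-induced factor, passed as higher at 0.63 under the fold limit, and 2.38% of all genes passed as higher.

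Markers of other stages and cells moved with the groups. Of 7 markers of double-positive (DP) or earlier thymocytes, 6 were in the table, and their summed level ran from 62.9 to 67.2 RPKM in GFPlo, 51.1 to 53.2 in GFPmed and 27.3 to 36.1 in GFPhi. Within that list Dntt, Cd8a and Cd8b1 passed as lower, at -1.43, -1.12 and -0.79, and Rag1 did not (limma adjusted p = 0.872). The sum of the SP4 markers ran from 1211 to 1379, 1202 to 1250 and 1044 to 1079, and Cd69, Gata3 and Bcl11b passed as lower, at -0.79, -0.74 and -0.54. The sum of 4 Treg markers ran from 7.29 to 8.53, 9.35 to 10.9 and 32.8 to 37.9, and Foxp3, Il2ra and Ikzf4 passed as higher, at 1.10, 2.68 and 2.46, although the gate removed CD25+ cells. In bulk RNA, fewer cells of a type and less RNA per cell cannot be told apart, and the part of these shifts in the values of the EGR and NAB genes was not tested.

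For the remaining cell types the sums were low. Those of 5 NKT or MAIT, 5 B cell, and 7 dendritic cell or macrophage markers stayed at or under 12.5 RPKM in every sample and overlapped between GFPlo and GFPhi, and 2 erythroid markers ran from 0.553 to 0.632 in GFPlo and 0.909 to 1.64 in GFPhi. The sum of the 5 thymic epithelial markers in the table ran from 2.77 to 5.6 in GFPlo and 6.45 to 9.14 in GFPhi, of which Epcam, also made by some thymocytes, passed as higher at 1.38. No marker in these lists was at 0 in all samples. Of 11 stress and dissociation genes tested, Jun was called lower, against 0.404% of all genes. Hsph1 passed as lower at -0.43, against 1.51% of all genes, and none passed as higher, against 2.38%. The median of the list was -0.21, against -0.09 over all genes. The part of these in the values of the members was not tested either.

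The genes whose log2(TPM + 1) was most like that of a member over the 9 samples were taken from 19138 genes. These correlations run over 3 groups and share libraries, so they describe the pattern alone. For Egr1 they were Satb1, a chromatin organizer of thymocytes (r = 0.992), Mbp (0.990) and Kcnh3 (0.990), and Satb1 had 760, 602 and 293 TPM in the means of GFPlo, GFPmed and GFPhi. For Egr2 they included Rhbdd2 (0.992) and Egr1 itself (0.988). For Nab2 they were Gata3, the factor of the CD4 lineage (0.995), Gm16229 (0.990) and Pygo2 (0.989). Gm16229 overlaps Nab2 on the other strand and may count reads of the same transcripts, so its likeness to Nab2 cannot be taken as independent.

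The leading genes for Egr3 were Dvl3 (0.978), Kcnf1 (0.977) and Nfatc1 (0.977). NFAT is known to switch on Egr2 as well as Egr3, and Egr2 was lower in GFPhi. A part of Nfatc1 in either change was not tested. For Nab1 the leading genes were Grtp1 (0.987), Trim44 (0.981) and Spred1 (0.977), an inhibitor of the RAS pathway. No gene is listed for Egr4, which was not tested.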

How the data were processed

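Reads from 9 samples of sorted SP4 thymocytes (SMART-seq v4 cDNA, Nextera XT libraries) were, by the study's methods, trimmed, aligned by the authors with STAR 2.7.11b to GRCm38 with GENCODE genes, cleared of identical duplicates, counted per gene and converted to the deposited TPM. The table also holds the authors' mean normalized counts per group (signal after DESeq2 1.34.0 size factors), and their log2 fold changes, adjusted p-values and call scores, and these last 3 deposited kinds of value were not used. All sample columns were used.

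Whole reads were solved from the deposited TPM and group means for 41578 of 41978 genes (400 were not solved), with 100% of low values whole within 0.02 reads, and levels per exonic kilobase used GENCODE exons on GRCm38, though of an older release than theirs (41836 IDs matched). The 30693 genes that reached 1 TPM in 3 or more samples entered limma 3.58.1 (R 4.3.3) as log2(TPM + 1), which understates changes of low genes, in a model over all 9 samples with eBayes and a trend. Calls needed a log2 fold change of at least 1 in size and an adjusted p of at most 0.05. The fit was tested on simulated reads, where 157 of 200 genes changed by 2 on the log2 scale were recovered. In that run 13 unchanged genes were called, and 0 when none was changed. Changes as small as those of the members were not simulated. Single genes were tested by exact permutation over 1680 arrangements (3 samples against 3 cannot go below p = 0.1). Python 3.11.15 was used. Intervals are at 95%, and the floor of 3 reads covers counting error only, as reads carried no molecular identifiers.

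Alternatives were median-of-ratios scaling, a smaller pseudocount (0.1), a filter at 5 TPM or none, only the 2 groups compared, a replicate block, limma-voom on the solved reads, no fold limit, and each sample left out. Named genes were the members, listed genes that passed or had the largest changes, genes overlapping a member and the 3 most correlated with each member, of which 1 for Egr2 is not reported here. Btg2, Ier2, Junb, Fos, Srf and Hdac1 were named as examples after their values were seen. The members and lists were chosen with earlier results of these data known.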

Additional observations from a re-analysis of the deposited data

How the results depend on the processing

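No fold change, trend or difference between members was reversed. Of 240 refits of a member's fold change, 207 kept its side of the adjusted p threshold, 27 no longer passed and 6 newly passed. By the unadjusted exact p, 64 of 65 trends and 72 of 78 differences kept their side of 0.05, and the 6 others were all of Egr2 against Egr1, which did not pass after adjustment over the pairs. Between GFPhi and GFPlo the number of members called, 0, became 4 with no fold limit, and ran from 0 to 1 with a sample left out. The number that passed the adjusted p there, 4, became 5 with limma-voom, 0 under median-of-ratios scaling and 2 with only the 2 groups compared. With a sample left out it ran from 2, without GFPlo replicate 1, 2 or 3 or GFPhi replicate 3, where Egr1 and Egr2 still passed, to 4. Between GFPmed and GFPlo, 1 member passed with limma-voom in place of 0. Between GFPhi and GFPmed the number called, 0, became 2 with no fold limit, and the number that passed, 2, became 4 with limma-voom, 1 with only the 2 groups compared and 0 under median-of-ratios scaling, and ran from 1 to 3 with a sample left out, falling to 1 without GFPmed replicate 1 or 2 or GFPhi replicate 3. Under median-of-ratios scaling the trend of Nab1 was -0.18 per step (exact permutation p = 0.075). That scaling moved samples by -0.194 to 0.277 on the log2 scale, both within and between groups, and the cause of the lost calls was not tested. The trend of Egr2 against Egr1 ran from -0.09 to -0.06 per step with a sample left out (highest exact permutation p = 0.0982). By the length implied by the TPM, the level of Egr1 over Egr2 in GFPlo was 2.47 in place of 2.4, and that of Nab2 over Nab1 25.5 in place of 5.12.

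The labels do not say whether same-numbered samples share a mouse. Deviations of same-numbered samples correlated at 0.012 to 0.225 (mean 0.061, 1 of 9 pairs over 0.1), and those of other pairs at -0.185 to 0.148 (mean -0.03). Same-numbered samples were thus somewhat more alike, but the main tests did not take the numbers as pairs. In 4 of 9 samples both same-numbered samples were the best correlated of the other groups, a hint from the data and not from the design. With the replicate block, Egr1, Egr2 and Nab2 passed between GFPhi and GFPlo and Egr3 did not (limma adjusted p = 0.12), and 0 members were called, as without the block. Exact trend tests were also run with samples exchanged only within replicate numbers, where the smallest possible p is 0.00926. Egr1, Egr2, Egr3 and Nab2 then had an exact permutation p of 0.00926, and Nab1 of 0.0185. Egr1 against Egr3 and Egr2 against Egr3 had 0.00926 as well. Depth limits what can be said of Egr4.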
